A study of Mus musculus with 34 samples.

Results

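The genes described here are 10 members of the activator protein 1 (AP-1) and immediate early class: the Fos family Fos, Fosb, Fosl1 and Fosl2, the Jun family Jun, Junb and Jund, the related factor Atf3, the zinc finger factor Egr1 and the early response gene Ier3. They were taken by symbol from the count table, and all 10 were found among its 14107 genes. The rule used no measured value, but the genes were chosen with earlier results of these data known. RNA was sequenced from mouse colorectal cancer cells of 3 lines (NaJa-D, NaJa-F, NaJa-G) that had been treated with 0.5 µM of the BRAF inhibitor encorafenib or with its solvent DMSO and were collected on day 1 or day 5. The 3 lines grew out of peritoneal lavage fluid of 3 C57BL/6N mice that had received organoids of 1 colon culture (Col235), so each line stands for 1 recipient. All groups, the DMSO controls included, carry BrafV600E/+, Trp53R172H and APCdel, switched on through VillinCreERT2, a tamoxifen-inducible Cre under a promoter that is active in gut epithelium. The study described NaJa-D as epithelial-like, NaJa-G as mesenchymal-like and NaJa-F as intermediate. The 34 libraries fall into 12 groups of line, treatment and day with 3 libraries each, except that 2 remain for encorafenib-treated NaJa-F and for DMSO-treated NaJa-G on day 5. For the day 5 samples drug and medium were renewed on day 2 and day 4.

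AP-1 is a dimer of basic leucine zipper proteins. Fos proteins bind DNA only together with a partner such as a Jun protein, while Jun proteins can also pair with each other, and Atf3 pairs with Jun proteins. In resting cells most immediate early genes are low. Growth factor signals that reach ERK switch them on within minutes, through the serum response factor SRF and its ETS-type partners, and their transcripts are short-lived. Fosl1 protein is stabilised by ERK and is known for high levels in invasive and mesenchymal-like carcinoma cells. BRAF V600E drives MEK and ERK without a growth factor, so this class is a common readout of BRAF inhibitors.

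Libraries held 46007050 to 80121299 counts each. The members were counted well above the detection limit: the lowest count of any member in any library was 45, for Fos. One library of NaJa-D DMSO day 1 carries NaJa-G in another label field. Over all genes its log2 CPM (counts scaled by library size) correlated at 0.995 with its NaJa-D neighbours and at no more than 0.920 with the NaJa-G libraries of the same treatment and day, and it was kept under its title. The epithelial markers Krt8, Krt18, Cdh1 and Epcam were present in all lines (at least 65.1 CPM in every library), while the epithelial gene Vil1 was at most 1.72 CPM in NaJa-F and NaJa-G. The intestinal genes Krt20 and Cdx2 were low in NaJa-G (at most 7.30 and 9.88 CPM), and Krt20 was at most 6.95 CPM in NaJa-F, where Cdx2 was at least 41.8. The endothelial markers Pecam1 and Cdh5 and the leukocyte marker Ptprc were not in the table, while the leukocyte marker Cd68 had 3.32 to 7.26 CPM in every library. Summed CPM of the 4 fibroblast markers in the table lay between 1.16 and 7.64 in NaJa-D and NaJa-F, where the encorafenib libraries were the higher ones, and in NaJa-G at 40.5 to 57.3 (DMSO) and 72.5 to 82.8 (encorafenib) on day 1, and at 11.6 to 14.1 and 90.8 to 106 on day 5. The mesothelial marker Msln reached 496 to 3514 CPM across the lines, with every encorafenib library above the DMSO libraries of its line and day, while Upk3b stayed at or below 6.40 CPM and Wt1 was absent from the table. The study reported that host cells were lost from the lines during passaging, judged by PCR for the wild-type Apc allele. It read the loss of the wild-type Trp53 amplicon and a raised Trp53R172H frequency in exome sequencing as further signs of this. The part of these marker differences in the results below was not tested. In such bulk samples fewer cells with a transcript and less of it per cell cannot be told apart.

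The promoters of 8 members are shown by their RefSeq windows on GRCm38.p6, 250 bases before to 50 after the start that RefSeq gives. The windows were searched on both strands for the AP-1 element TGANTCA, the cyclic AMP element TGACGTCA and its variant TGACATCA, the EGR element GCGNGGGCG, the ETS core CCGGAA and the serum response CArG box. Fosb (chr7:19309996-19310295, minus strand) and Fosl2 (chr5:32136222-32136521, plus strand) each held 1 EGR element, which is found in 5.56% of all 32817 windows. Jun (chr4:95052173-95052472, minus strand) held the variant TGACATCA, found in 3.62% of windows. The windows are printed because they alone among the 8 held a match. Capitals mark the matched letters, which begin 50 bases before the start in Fosb, 79 in Fosl2 and 45 in Jun.
Fosb: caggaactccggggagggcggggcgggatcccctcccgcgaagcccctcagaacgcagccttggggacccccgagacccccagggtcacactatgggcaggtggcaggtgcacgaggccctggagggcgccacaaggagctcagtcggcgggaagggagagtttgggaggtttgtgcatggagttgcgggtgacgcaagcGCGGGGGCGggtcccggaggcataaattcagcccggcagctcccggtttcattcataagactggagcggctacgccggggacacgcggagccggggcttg
Fosl2: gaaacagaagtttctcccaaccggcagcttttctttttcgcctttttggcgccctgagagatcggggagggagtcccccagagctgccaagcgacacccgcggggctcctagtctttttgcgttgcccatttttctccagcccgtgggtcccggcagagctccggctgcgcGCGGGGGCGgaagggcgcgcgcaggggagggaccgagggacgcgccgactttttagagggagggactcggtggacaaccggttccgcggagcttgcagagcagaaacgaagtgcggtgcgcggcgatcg
Jun: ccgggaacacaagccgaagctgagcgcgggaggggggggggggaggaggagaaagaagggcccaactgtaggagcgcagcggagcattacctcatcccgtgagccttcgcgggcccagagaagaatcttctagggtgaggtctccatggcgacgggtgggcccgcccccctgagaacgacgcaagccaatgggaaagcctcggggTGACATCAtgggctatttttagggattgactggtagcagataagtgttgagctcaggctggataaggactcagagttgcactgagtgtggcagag
Within the windows of Fos, Junb, Jund, Atf3 and Ier3 none of these letters was found. Sequence more than 250 bases before a start was not searched. Across all windows TGANTCA was present in 7.81%, TGACGTCA in 1.79%, CCGGAA in 14.9% and the CArG box in 1.63%. For Fos, Fosb, Jun, Junb and Ier3 the RefSeq start lay within 30 bases of the gene start in GENCODE M21, whose coordinates are given next. That of Fosl2 lay 671 bases and that of Atf3 34706 bases inside the gene, and the Jund window ended 1161 bases before it, so for these 3 genes the windows do not cover the printed gene start. A match describes letters in a window and was not tested as a binding site.

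The genes lie on GRCm38 at chr12:85473890-85477273 (Fos), chr7:19302696-19310051 (Fosb), chr19:5447547-5455946 (Fosl1), chr5:32135801-32157842 (Fosl2), chr4:95049034-95052222 (Jun), chr8:84974484-84978718 (Junb), chr8:70698949-70700616 (Jund), chr1:191170296-191218039 (Atf3) and chr17:35821684-35822923 (Ier3), with Egr1 on chromosome 18, and all are protein-coding. Levels between genes were compared as CPM per kilobase of merged exons (GENCODE M21). Bases shared with a gene on the opposite strand were kept in the length. They were 1163 of 2033 in Fosl1, 877 of 1668 in Jund, 173 of 2301 in Junb and 232 of 3189 in Jun. How reads in such bases were counted was not stated, and the order of levels may depend on it. In NaJa-D DMSO day 1, Ier3, a short-lived regulator of apoptosis and signalling, was the most abundant member at 221 ± 17.5 CPM per kilobase (SD, n = 3). Junb followed at 49.6 ± 6.67, Fosl1 at 37.7 ± 1.20 and Jund at 35.5 ± 3.90, and Fosl1 and Jund did not differ beyond their spread. Fosl2 stood at 17.2 ± 0.656 and Jun at 13.9 ± 0.583. Atf3 (5.23 ± 0.365), Egr1 (3.00 ± 0.309), Fosb (2.51 ± 0.0530) and Fos (1.18 ± 0.0361) were the lowest. In NaJa-G DMSO day 1 Fosl1 was second at 78.3 ± 5.37 CPM per kilobase, above Junb at 51.4 ± 14.0. Fos, the founding member of the family, was the least abundant member in NaJa-F and NaJa-G as well, at 0.683 ± 0.107 and 0.588 ± 0.0287 CPM per kilobase.

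**Figure D1:**
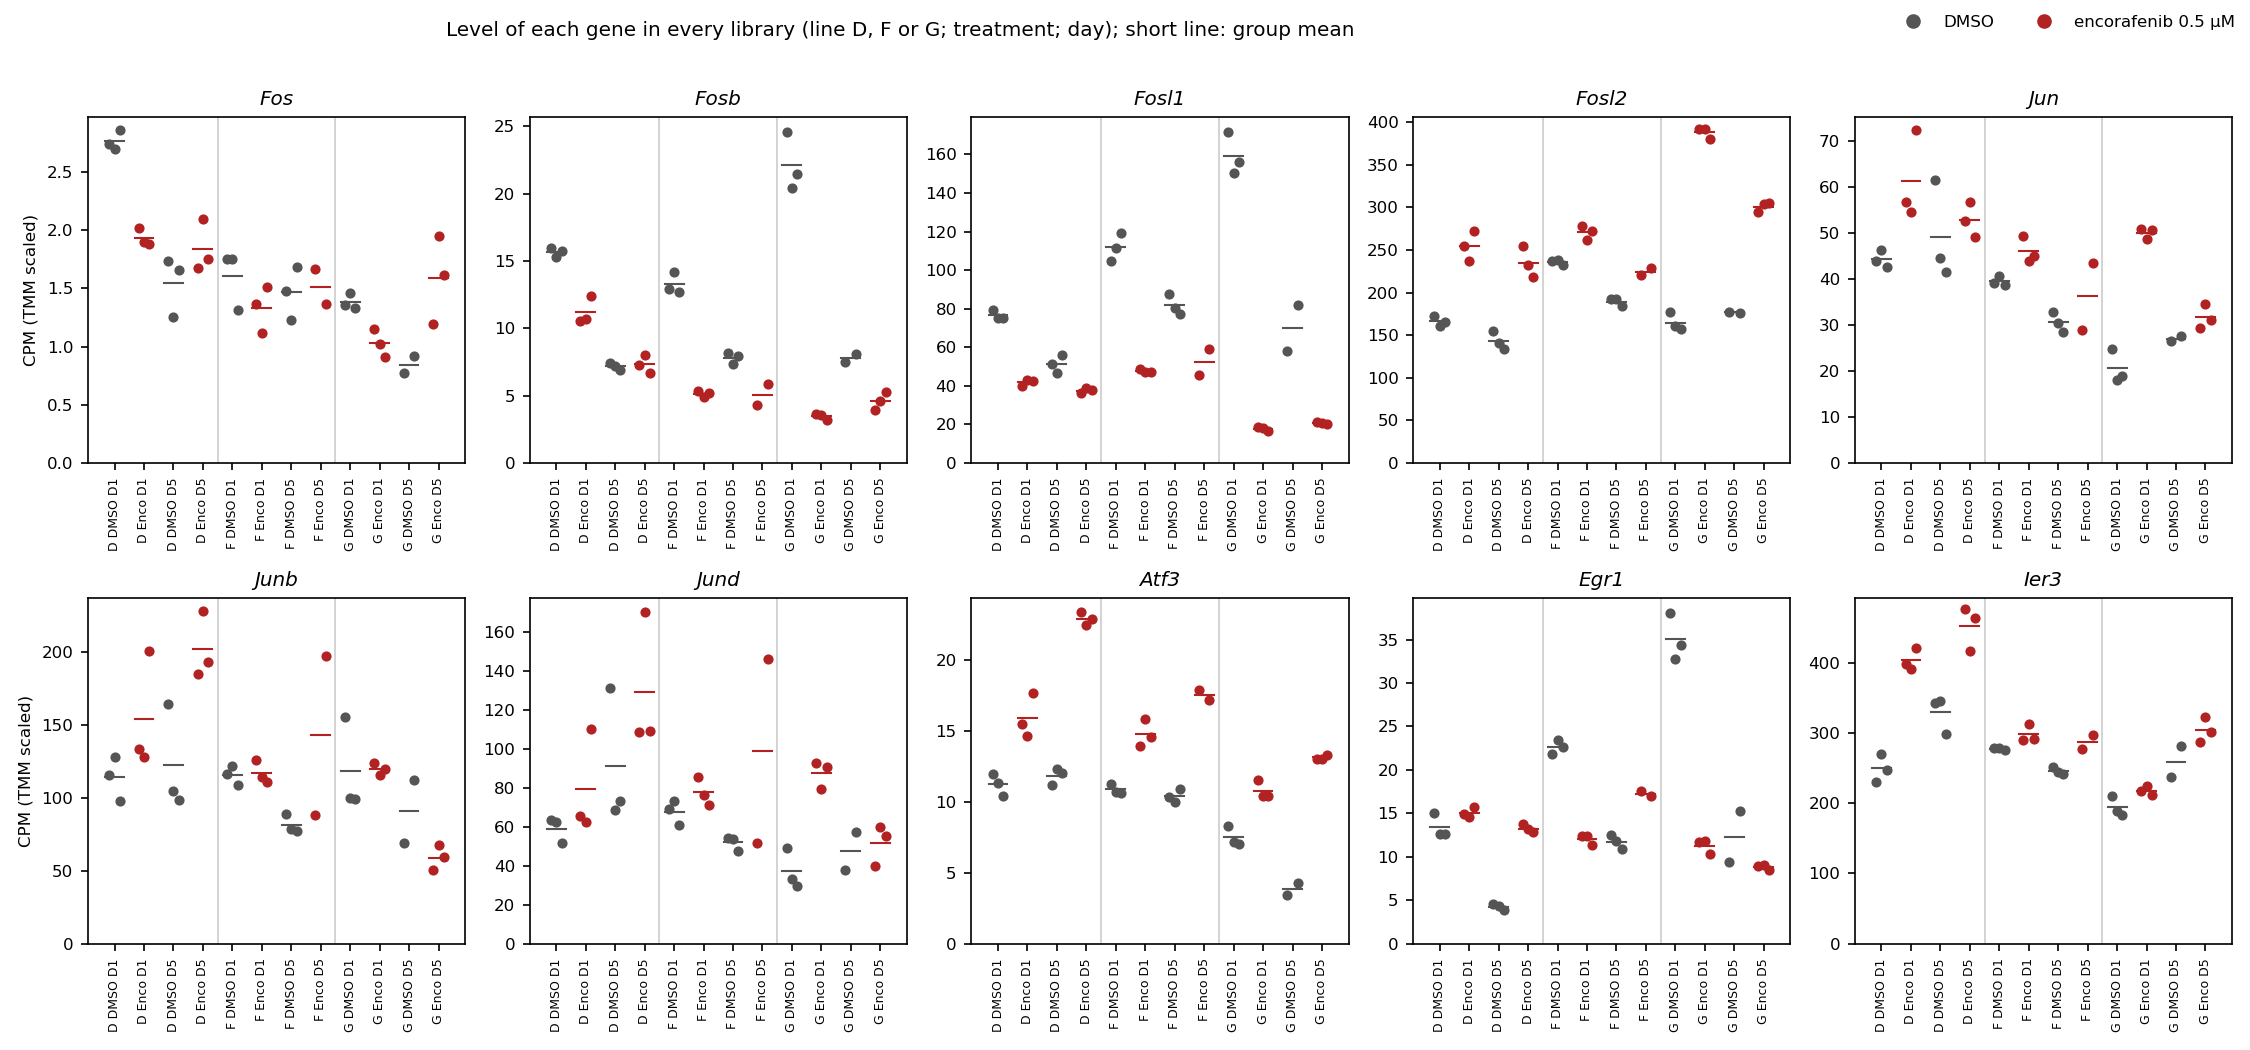
Level of each of the 10 genes in every library. The vertical axes give CPM from 0, points are libraries, short lines are group means, grey is DMSO and red is encorafenib, ordered by line (D, F, G) and day. Fosl1 lies lower and Fosl2 higher with encorafenib in every pair of groups, while Junb and Jund show single libraries far from the others of their group.

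Encorafenib was compared with DMSO within each line and day. Calls required a limma p of less than 0.01 after Benjamini-Hochberg adjustment across the 14107 genes. On day 1 in NaJa-D 4 members were called higher and 3 lower, beside 23.7% and 21.2% of all genes. On day 5 in NaJa-D 5 were higher and 1 lower, beside 18.3% and 14.7%. In NaJa-F 2 members were higher and 3 lower on day 1 (all genes 17.5% and 12%), and 3 were higher and 2 lower on day 5 (9.7% and 8.5%). In NaJa-G 4 members were higher and 3 lower on day 1, beside 35.3% and 28.7% of all genes, and 3 were higher and 3 lower on day 5, beside 28.5% and 24.7%. With scaling by library size only, the share of higher genes among all called genes of NaJa-D day 1 was 63.6% in place of 52.8%. In NaJa-G the members' count was thus near the share of all genes, and their sizes were larger: the median absolute log2 fold change of the 10 members was 1.25 on day 1 and 0.68 on day 5, against 0.47 and 0.37 over all genes. In NaJa-D these medians were 0.49 and 0.50 against 0.31 and 0.22, and in NaJa-F 0.24 and 0.60 against 0.21 and 0.17. The NaJa-F day 5 median rested on 1 library, since without encorafenib replicate 2 it was 0.19. Only Fosl1, Fosl2 and Atf3 among the members were called in the same direction in all 6 comparisons.

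**Figure D2:**
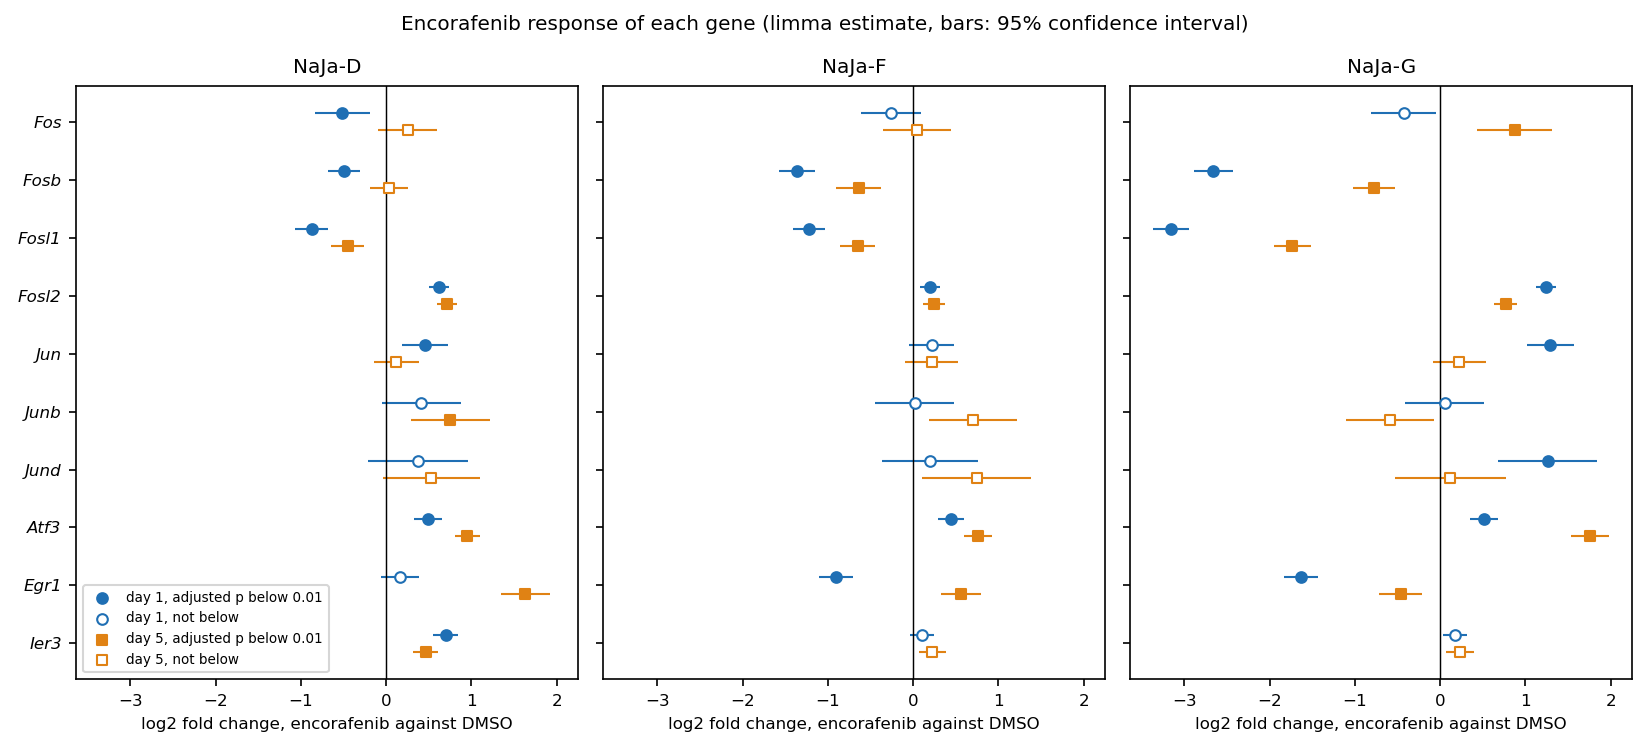
Log2 fold change of each gene with encorafenib against DMSO in the 3 lines. Circles are day 1, squares day 5, bars 95% confidence intervals from limma, and filled symbols have an adjusted p below 0.01. Fosl1 is lower and Fosl2 and Atf3 are higher in all 3 panels, and Egr1 lies on different sides of 0 between days in NaJa-F and between lines on day 5.

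Fosl1, which encodes Fra-1, was lower with encorafenib in every line on both days. In NaJa-G on day 1 its CPM were 171, 150 and 156 in DMSO and 18.5, 18.2 and 16.7 with encorafenib. The groups were far apart, and the log2 fold change was -3.15 ± 0.10 (SE), 8.91-fold lower, with a limma adjusted p of 1.13e-20. On day 5 the NaJa-G libraries held 58.2 and 82.1 CPM in DMSO against 21.5, 20.8 and 20.3 (log2 fold change -1.73 ± 0.11, limma adjusted p = 5.3e-14). The encorafenib level of NaJa-G was thus 16.7 to 18.5 CPM on day 1 and 20.3 to 21.5 on day 5, a difference that was not tested. Its DMSO level was lower on day 5. In NaJa-F Fosl1 went from 105, 111 and 119 CPM to 49.0, 47.4 and 47.3 on day 1 (-1.22 ± 0.09, limma adjusted p = 1.05e-11). On day 5 NaJa-F had 87.6, 80.5 and 77.2 CPM against 45.8 and 59.0 (-0.65 ± 0.10, limma adjusted p = 1.28e-05). The smallest changes were in NaJa-D, with 79.5, 75.2 and 75.3 CPM against 39.8, 43.3 and 42.7 on day 1 (-0.87 ± 0.09) and 51.3, 46.7 and 56.1 against 36.1, 39.0 and 37.6 on day 5 (-0.45 ± 0.10). In none of the 6 comparisons did the libraries of the groups overlap. The share of all genes without overlap was not counted, so this is a description and adds no evidence to the test. Of the 2033 exonic bases of Fosl1, 1163 are shared with Ccdc85b on the opposite strand, and the use of strand in counting was not stated. Ccdc85b was not called in any of the 6 comparisons, with its lowest log2 fold change in NaJa-G on day 5 (-1.18, limma adjusted p = 0.0328). In NaJa-G on day 1 it had 25.3, 13.9 and 14.2 CPM in DMSO and 15.2, 14.4 and 16.4 with encorafenib. Its SD within groups was 0.55 on the log2 CPM scale, so the missing calls cannot show whether shared reads entered the Fosl1 counts.

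Fosl2, which encodes Fra-2 and needs a Jun partner as Fosl1 does, moved the other way and was higher with encorafenib in all 6 comparisons. In NaJa-G on day 1 it rose from 177, 160 and 157 CPM to 392, 392 and 380 (log2 fold change 1.24 ± 0.06, limma adjusted p = 4.22e-17), and on day 5 from 177 and 176 CPM to 294, 304 and 305 (0.77 ± 0.06). NaJa-D showed 173, 160 and 165 CPM against 255, 237 and 272 on day 1 (0.62 ± 0.06) and 155, 141 and 134 against 255, 232 and 218 on day 5 (0.71 ± 0.06). The rise was smallest in NaJa-F, from 237, 238 and 233 CPM to 278, 262 and 272 on day 1 (0.20 ± 0.06, limma adjusted p = 0.00796) and from 192, 192 and 184 to 221 and 228 on day 5 (0.25 ± 0.06, limma adjusted p = 0.00427). In NaJa-F the call was lost without any 1 of the 6 libraries on day 1 and without any 1 of the 5 on day 5, at values of 0.18 to 0.22 and 0.20 to 0.26. Fosl1, Fosl2 and Fos were among the ERK-regulated transcripts that the study itself displayed from these libraries, so their direction here is not independent evidence.

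Fosb was also lower on day 1, most in NaJa-G, and on day 5 it was called lower in NaJa-G and NaJa-F but not in NaJa-D. On day 1 NaJa-G had 24.6, 20.4 and 21.4 CPM in DMSO and 3.64, 3.57 and 3.22 with encorafenib (log2 fold change -2.66 ± 0.11, limma adjusted p = 3.15e-18), and on day 5 7.51 and 8.11 against 3.91, 4.60 and 5.24 (-0.78 ± 0.12). NaJa-F held 12.9, 14.2 and 12.7 CPM against 5.34, 4.93 and 5.17 on day 1 (-1.36 ± 0.10) and 8.15, 7.37 and 7.97 against 4.30 and 5.83 on day 5 (-0.64 ± 0.13). The day 5 call in NaJa-F was lost at -0.43 without replicate 1 of the encorafenib group. In NaJa-D Fosb was lower on day 1, from 16.0, 15.3 and 15.7 CPM to 10.5, 10.7 and 12.4 (-0.49 ± 0.09), and the day 5 libraries overlapped (0.04 ± 0.11, limma adjusted p = 0.809).

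Fos itself was low in all libraries, at 0.769 to 2.86 CPM. In NaJa-D on day 1 it was lower with encorafenib, at 2.02, 1.90 and 1.88 CPM against 2.74, 2.70 and 2.86 (log2 fold change -0.51 ± 0.16, limma adjusted p = 0.00657). That call was lost without any 1 of the 6 libraries, at values of -0.55 to -0.50. In NaJa-G on day 5 Fos was higher, at 1.19, 1.95 and 1.61 CPM against 0.769 and 0.915 (0.87 ± 0.22, limma adjusted p = 0.000965), and the call was lost at 0.76 without replicate 1 of the DMSO group. The other 4 comparisons did not pass, with log2 fold changes of -0.43 ± 0.19 in NaJa-G on day 1, -0.26 ± 0.17 and 0.05 ± 0.19 in NaJa-F on day 1 and day 5, and 0.25 ± 0.17 in NaJa-D on day 5.

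The opposite movement of Fosl1 and Fosl2 changed the make-up of the Fos family on the per-length scale. On day 1 in NaJa-G Fosl1 made up 78.7 ± 0.422% of the summed CPM per kilobase of the 4 genes in DMSO and 17.6 ± 0.479% with encorafenib (SD, n = 3 each), while Fosl2 went from 17.1 ± 0.424% to 80.5 ± 0.601%. In NaJa-D the Fosl1 share was 64.4 ± 0.351% in DMSO and 41.7 ± 2.07% with encorafenib, and in NaJa-F 66.9 ± 1.78% and 44.5 ± 0.575%. With encorafenib Fosl2 thus held the larger share in NaJa-D (53.1 ± 2.02%) and NaJa-F (52.8 ± 0.407%) on day 1. On day 5 Fosl2 held 54.3 ± 2.66% in NaJa-D and 72.7 ± 0.519% in NaJa-G, but in NaJa-F Fosl1 (50.9 ± 3.83%, n = 2) and Fosl2 (46.2 ± 3.69%) did not differ beyond their spread. The summed level of the family in NaJa-G on day 1 was 99.5 ± 6.71 CPM per kilobase in DMSO and 49.9 ± 1.25 with encorafenib. Fosb and Fos added at most 4.29% and 2.01% in any group. Which gene leads depends on the scale, since Fosl2 has 9680 exonic bases: in plain CPM Fosl2 held the larger share in all groups, with 47.4% against 45.8% for Fosl1 in NaJa-G DMSO day 1, while the Fosl1 share was lower with encorafenib on both scales. The per-length lead may also depend on how reads were counted in the 1163 of 2033 Fosl1 bases shared with Ccdc85b, which was not stated. These shares are descriptions without a test, and transcript shares do not give protein shares.

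**Figure D3:**
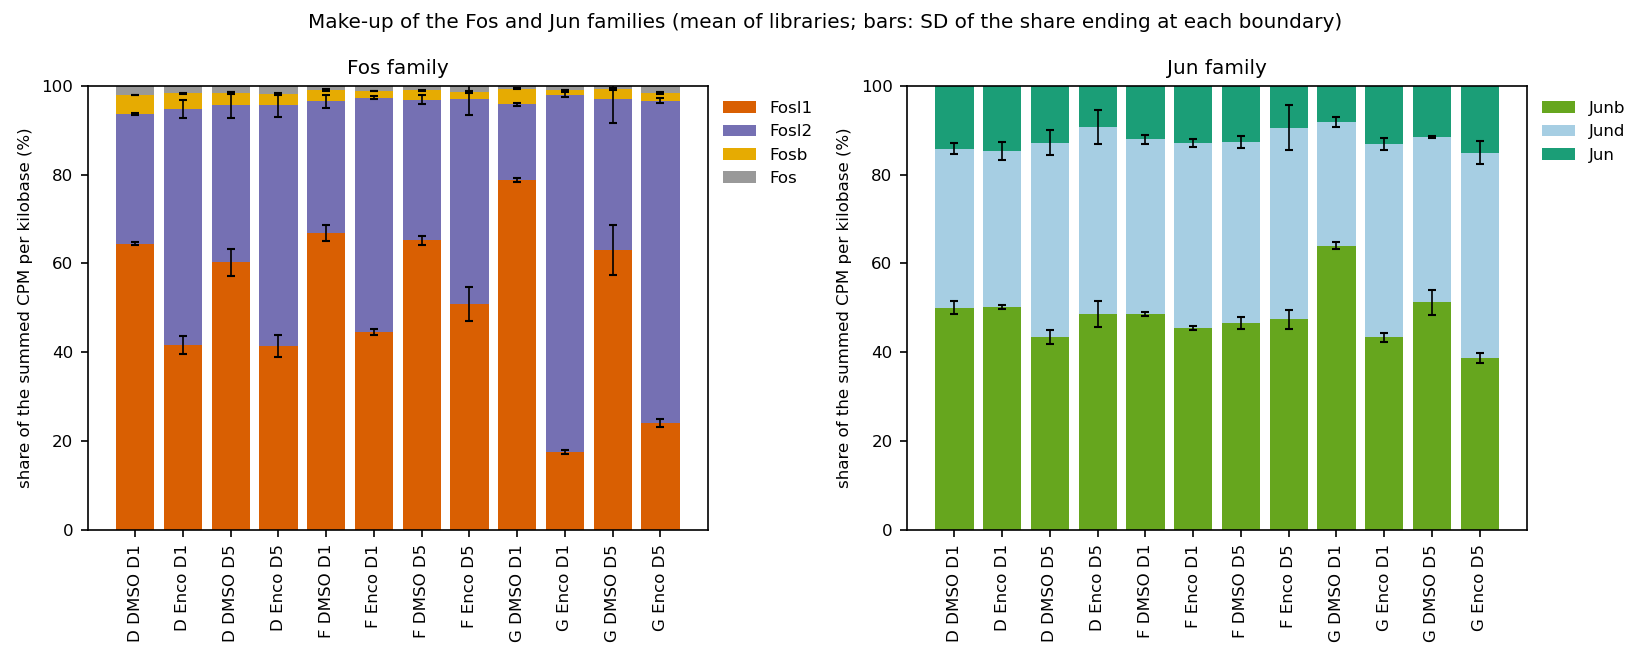
Mean share of each member in the summed CPM per kilobase of its family, in percent, for the 12 groups (line D, F or G, treatment, day). Bars on the boundaries are SDs over the 2 or 3 libraries. In the left panel the Fosl1 block shrinks from 78.7% to 17.6% between NaJa-G DMSO and encorafenib on day 1, and in the right panel Jund and Junb make up most of the Jun family in every group.

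Of the Jun family, Jun showed its strongest change in NaJa-G on day 1. It had 24.7, 18.1 and 18.8 CPM in DMSO and 50.8, 48.6 and 50.7 with encorafenib (log2 fold change 1.29 ± 0.14, limma adjusted p = 1.62e-09). In NaJa-D on day 1 Jun was 43.8, 46.3 and 42.7 CPM against 56.7, 54.5 and 72.3 (0.45 ± 0.13, limma adjusted p = 0.00424), and the call was lost without any 1 of DMSO replicate 1, DMSO replicate 3 and encorafenib replicate 3, with 0.30 in the last case. On day 5 Jun was not called in any line, at log2 fold changes of 0.12 ± 0.13 in D, 0.22 ± 0.15 in F and 0.23 ± 0.15 in G. The antisense gene Junos shares 232 bases with Jun and was at or below 1.47 CPM in all libraries.

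Jund, which is kept at a steadier level than Jun in many tissues, was also higher in NaJa-G on day 1, at 93.0, 79.4 and 90.8 CPM against 49.0, 33.1 and 29.6 (log2 fold change 1.26 ± 0.28, limma adjusted p = 0.000275). It was called in no other comparison. Junb was called in NaJa-D on day 5 alone, at 185, 228 and 193 CPM against 165, 105 and 98.3 (0.75 ± 0.23, limma adjusted p = 0.00812). That call was lost without 5 of the 6 libraries in turn (lowest value 0.62, without DMSO replicate 3), and also by edgeR's quasi-likelihood test (adjusted p = 0.0105) and DESeq2 (adjusted p = 0.0135). In NaJa-F on day 5 Junb was 88.7, 78.4 and 77.4 CPM in DMSO and 88.4 and 198 with encorafenib, and Jund 54.5, 53.8 and 47.9 against 51.9 and 146, so that a single library was high in both genes. Without that library, replicate 2, the Jund difference was -0.02, and without replicate 1 it was 1.48. Without replicate 1 the calls of Jund and of Junb (1.27) were gained.

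Junb and Jund had the largest spread within groups of the 10 members, with SDs of 0.31 and 0.38 on the log2 CPM scale against a median of 0.093 over 10276 expressed genes. They also had the highest GC content of their longest transcripts, 62.6% and 67.1%, at the 98.8th and 99.8th percentile of the table. Libraries with high Junb and Jund also had higher values for the 1026 GC-rich genes (at least 57.7% GC). Over the 34 deviations from group means (22 degrees of freedom) the Pearson r with the median GC-rich deviation was 0.90 for Junb, 0.79 for Jund, 0.75 for Jun, 0.73 for Ier3, 0.66 for Fosl1, 0.59 for Fosb, 0.58 for Egr1, 0.50 for Atf3, 0.38 for Fosl2 and 0.049 for Fos, given as a description since these values share their libraries. After removal of each library's trend over GC content, an alternative added after seeing the data, Junb (0.65) and Jund (0.63) were called in NaJa-F on day 5 with limma adjusted p of 0.00405 and 0.00912, and Junb (-0.53) was called lower in NaJa-G on day 5 with 0.00814. Ier3 gained a call on day 5 in NaJa-F (0.27) and NaJa-G (0.29) as well, while Fos over time in NaJa-G (-0.71) and the Fosb response difference between NaJa-F and NaJa-D on day 5 (-0.58) lost theirs. What sets the deviations was not tested. Junb shares 173 exonic bases with Prdx2 on the opposite strand, and Jund 877 with Gm11175, which is not in the table.

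**Figure D4:**
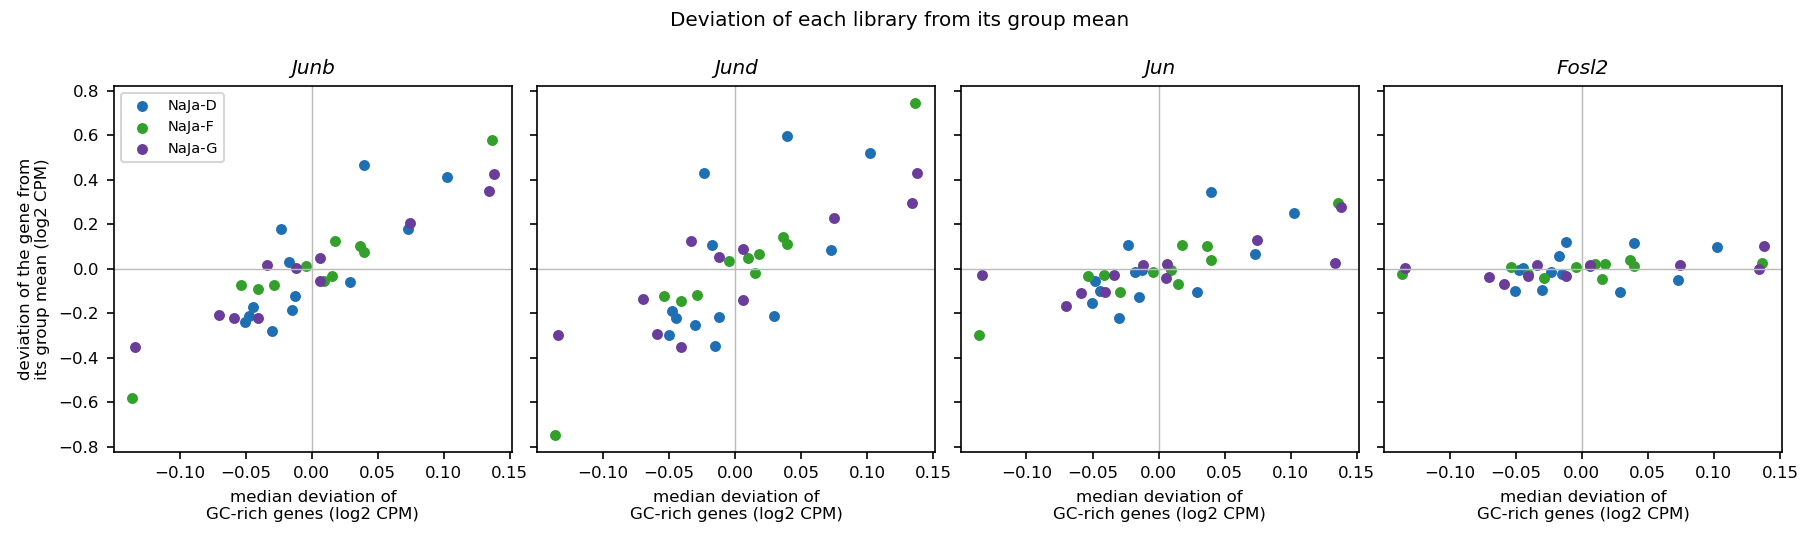
Deviation of each library from its group mean on the log2 CPM scale, for Junb, Jund, Jun and Fosl2 (vertical) against the median deviation of the GC-rich genes (horizontal). Points are the 34 libraries coloured by line. Junb and Jund climb along the horizontal axis (r = 0.90 and 0.79), and Fosl2 stays within a narrow band (within-group SD 0.068).

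Atf3, a stress-induced factor of the ATF family, was higher with encorafenib in all 6 comparisons. On day 5 in NaJa-G it had 3.44 and 4.31 CPM in DMSO and 13.0, 13.1 and 13.4 with encorafenib (log2 fold change 1.76 ± 0.11, 3.38-fold, limma adjusted p = 5.48e-14). In NaJa-D on day 5 it rose from 11.2, 12.3 and 12.1 CPM to 23.4, 22.5 and 22.9 (0.95 ± 0.07) and in NaJa-F from 10.3, 9.99 and 10.9 to 17.9 and 17.2 (0.76 ± 0.08). Day 1 changes lay close together in the 3 lines, at 0.49 ± 0.08 in D, 0.44 ± 0.07 in F and 0.52 ± 0.08 in G. The libraries of the groups overlapped in none of the 6 comparisons. Without a count of that share over all genes this is a description only.

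Egr1, an ERK-responsive zinc finger factor, changed direction with line and day. On day 1 it was lower in NaJa-G, from 38.0, 32.7 and 34.4 CPM to 11.7, 11.8 and 10.4 (log2 fold change -1.63 ± 0.10, limma adjusted p = 9.17e-15), and in NaJa-F, from 21.9, 23.4 and 22.7 to 12.4, 12.4 and 11.4 (-0.91 ± 0.10, limma adjusted p = 1.46e-08). In NaJa-D the day 1 libraries overlapped, at 15.1, 12.7 and 12.6 CPM against 14.9, 14.6 and 15.7 (0.16 ± 0.11, limma adjusted p = 0.218). On day 5 Egr1 was higher in NaJa-D, at 13.7, 13.2 and 12.8 CPM against 4.55, 4.39 and 3.89 (1.63 ± 0.14, limma adjusted p = 1.7e-10), and in NaJa-F, at 17.5 and 17.0 against 12.6, 11.8 and 10.9 (0.56 ± 0.11). It was still lower in NaJa-G on day 5, at 8.91, 9.11 and 8.48 CPM against 9.40 and 15.3 (-0.46 ± 0.12, limma adjusted p = 0.00195). The NaJa-G day 5 call rested on DMSO replicate 3, without which the value was -0.10 (limma adjusted p = 0.504), and it was lost when the fit held just these groups (-0.47, limma adjusted p = 0.0648). With encorafenib the NaJa-D libraries had 14.6 to 15.7 CPM of Egr1 on day 1 and 12.8 to 13.7 on day 5. The DMSO libraries went from 12.6 to 15.1 on day 1 to 3.89 to 4.55 on day 5. The day difference with encorafenib was not tested.

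Ier3 was higher in NaJa-D, from 231, 270 and 248 CPM to 399, 392 and 421 on day 1 (log2 fold change 0.70 ± 0.07, limma adjusted p = 2.01e-09) and from 343, 346 and 299 to 477, 417 and 464 on day 5 (0.46 ± 0.07). It was not called in NaJa-F (0.10 ± 0.07 and 0.22 ± 0.08) or in NaJa-G (0.17 ± 0.07 and 0.23 ± 0.08). The call was gained in NaJa-G on day 1 without DMSO replicate 1 (0.23). On day 5 it was gained without DMSO replicate 3 (0.35) or encorafenib replicate 1 (0.27).

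Day 5 was set against day 1 in DMSO as the background of culture time. In NaJa-D 6 members were called (29% of all genes), in NaJa-F 4 (16.7%) and in NaJa-G 6 (34.1%), and all were lower on day 5 except Ier3. The share of all genes in NaJa-F was 10.4% without DMSO day 1 replicate 2. The log2 difference of Egr1 was -1.66 ± 0.15 in NaJa-D, -0.95 ± 0.10 for NaJa-F, and -1.53 ± 0.11 for NaJa-G. That of Fosb was -1.13 ± 0.10, -0.76 ± 0.09 and -1.50 ± 0.10, and that of Fosl1 -0.58 ± 0.09, -0.45 ± 0.09 and -1.20 ± 0.10, in the same order of lines. Fosl2 was lower in NaJa-D (-0.22 ± 0.06) and NaJa-F (-0.32 ± 0.06), and Fos in NaJa-D (-0.83 ± 0.17) and NaJa-G (-0.71 ± 0.22). The Fosl2 call in NaJa-D was lost without any 1 of 4 libraries (-0.23 to -0.17). Scaled by library size only, Fosl2 in NaJa-D was -0.04 and no longer called, where that scaling moved the median of all genes by 0.18. The call of Fos in NaJa-G was lost without any 1 of its 5 libraries (-0.84 to -0.60), with the replicate number as a block (-0.71, limma adjusted p = 0.0122) and after the GC correction. Atf3 was lower in NaJa-G alone among the called values (-0.95 ± 0.11), and Ier3 was higher in NaJa-D (0.40 ± 0.07) and NaJa-G (0.42 ± 0.08). Each day 5 encorafenib comparison is read against DMSO libraries in which these genes had moved.

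**Figure D5:**
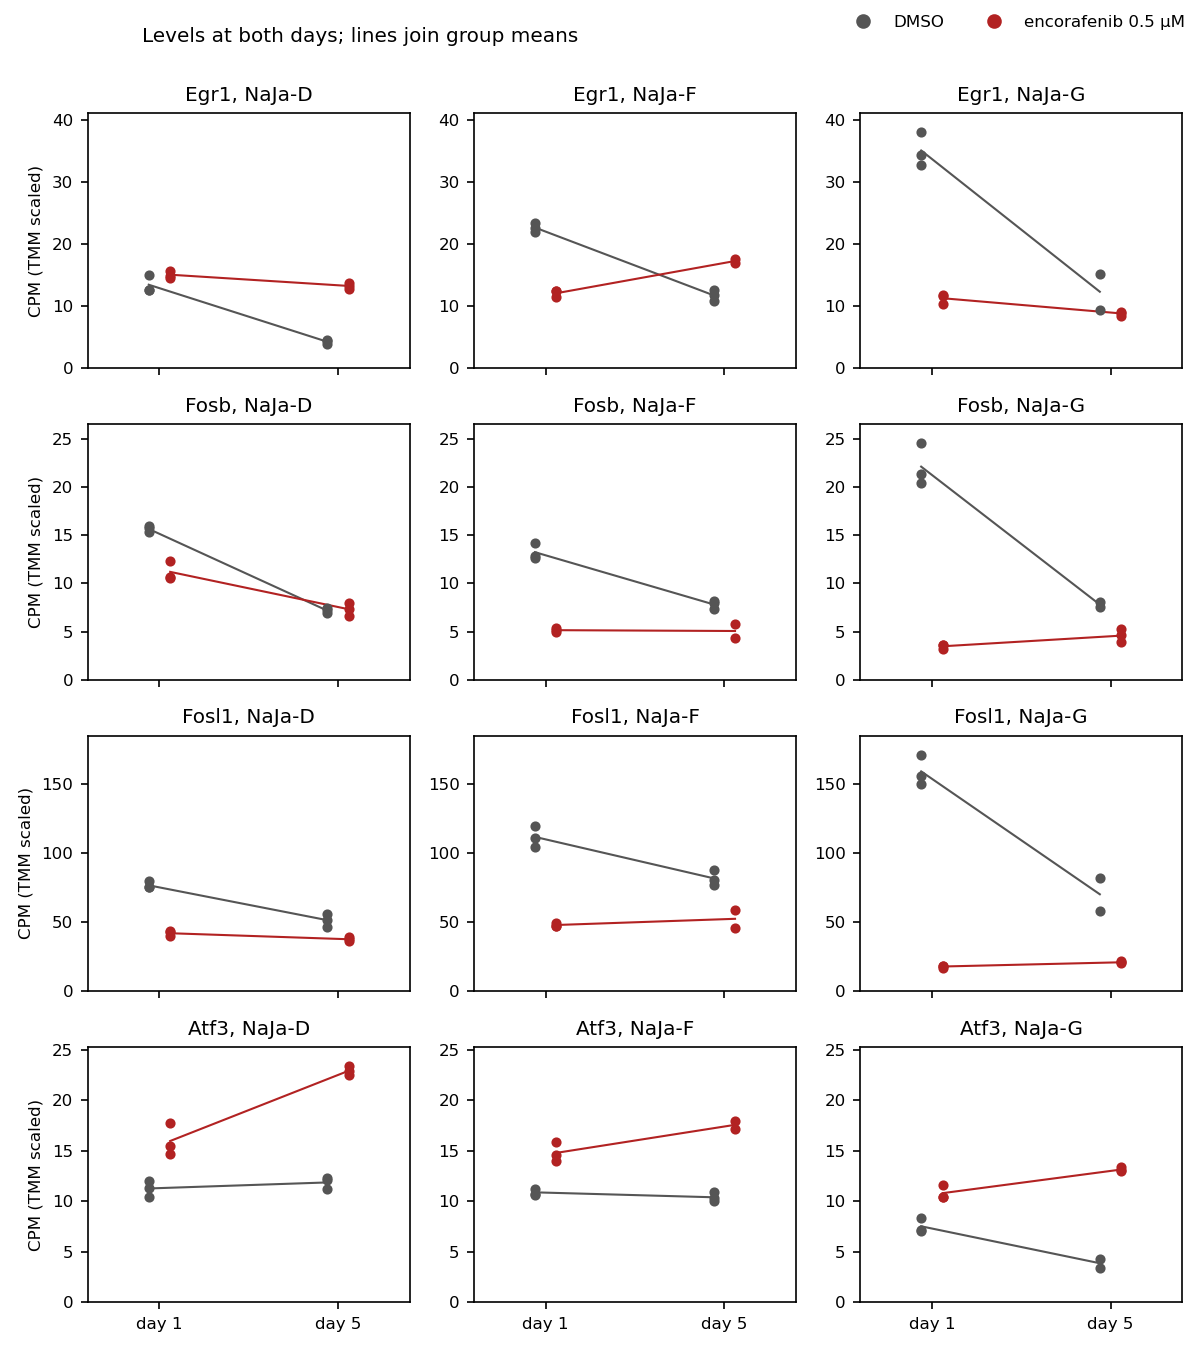
Levels of Egr1, Fosb, Fosl1 and Atf3 on day 1 and day 5 in the 3 lines. Vertical axes give CPM from 0, points are libraries, and lines join the group means of DMSO (grey) and encorafenib (red). The grey lines of Egr1, Fosb and Fosl1 fall between the days in every line, while the red line of Atf3 lies above the grey one throughout.

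The lines were compared with each other in DMSO, with equal weight for day 1 and day 5. Between NaJa-F and NaJa-D 5 members were called (61.6% of all genes), between NaJa-G and NaJa-D 9 (67.4%) and between NaJa-G and NaJa-F 7 (54.4%). Egr1 rose in the order D, F, G, with NaJa-F above NaJa-D by 1.10 ± 0.09 and NaJa-G above NaJa-F by 0.34 ± 0.07 on the log2 scale. The second of these was lost at 0.15 without NaJa-G DMSO day 5 replicate 3. Fosl1 was higher than in NaJa-D in NaJa-F (0.61 ± 0.06) and NaJa-G (0.74 ± 0.07). Fos and Jun went the other way, at -0.94 ± 0.14 and -0.98 ± 0.10 in the comparison of NaJa-G with NaJa-D, and at -0.45 ± 0.12 and -0.42 ± 0.09 in that of NaJa-F with NaJa-D. With the day 1 groups only the second Jun value was -0.16 and not called. NaJa-G had less Atf3 than NaJa-D (-1.09 ± 0.07) and NaJa-F (-0.97 ± 0.07), and less Ier3 (-0.36 ± 0.05 and -0.22 ± 0.05). The latter Ier3 value was -0.16 and not called without NaJa-G DMSO day 5 replicate 1. Jund stood below NaJa-D in NaJa-G (-0.79 ± 0.22), and without that same library it was -0.64 and not called. Fosl2 was highest in NaJa-F, by 0.46 ± 0.04 over NaJa-D, and its small excess in NaJa-G over NaJa-D (0.15 ± 0.04) was lost without any 1 of 3 libraries (0.12 to 0.15) and was -0.01 with the day 1 groups only. The Fos difference between NaJa-G and NaJa-F (-0.48) lost its call without NaJa-F DMSO day 5 replicate 3 (-0.42) or NaJa-G DMSO day 5 replicate 1 (-0.43), and was -0.19 and not called with the day 1 groups only. Jund between NaJa-G and NaJa-D also lost its call with the day 1 groups only (-0.69).

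Whether the encorafenib response itself differed was tested with the interaction terms of the same limma fit. On day 1, 4 members differed between NaJa-F and NaJa-D (8.79% of all genes), 6 between NaJa-G and NaJa-D (36.4%) and 5 between NaJa-G and NaJa-F (33.5%). At the later day, in the same order, 3 (8.85%), 5 (21.9%) and 5 (24.2%) differed. From day 1 to day 5 the responses of 2 members differed in NaJa-D (7.29%), of 3 in NaJa-F (5.88%) and of 7 in NaJa-G (31.7%). Several of these shares of all genes moved when 1 library was left out. That of NaJa-F and NaJa-D on day 1 ran from 4.57% to 27.9%, and that between days in NaJa-D from 4.12% to 22.0%, both highest without NaJa-D encorafenib day 1 replicate 3. That of NaJa-F and NaJa-D on day 5 was 5.47% without NaJa-F encorafenib day 5 replicate 1. These comparisons share their DMSO libraries. On day 1 the Fosl1 response of NaJa-G was lower than that of NaJa-D (log2 difference -2.28 ± 0.14, limma adjusted p = 2.72e-13) and that of NaJa-F (-1.93 ± 0.14, limma adjusted p = 5.43e-12), and the Fosl1 responses of NaJa-F and NaJa-D were not called different. The Fosl2 response of NaJa-G exceeded those of NaJa-D (0.62 ± 0.08) and NaJa-F (1.04 ± 0.08). On day 5 the Egr1 response of NaJa-G was below that of NaJa-D (-2.10 ± 0.19, limma adjusted p = 9.02e-10), as was that of NaJa-F (-1.08 ± 0.18). Egr1 was the only member whose response was called higher on day 5 than on day 1 in all 3 lines. The differences were 1.47 ± 0.18 in D, 1.47 ± 0.15 in F and 1.16 ± 0.16 in G. From day 1 to day 5 its mean CPM with encorafenib went from 15.1 to 13.3 in D and from 11.3 to 8.83 in G. In F it rose from 12.1 to 17.3. In DMSO the mean fell in D (13.5 to 4.27), F (22.7 to 11.8) and G (35.1 to 12.3).

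The other genes of the pathway were taken from fixed lists and are given as counts with no list test. Of 15 dimer partners from the bZIP class 12 were in the table (Batf, Batf2 and Batf3 were not). Ordered by line (D, F, G), 5, 1 and 4 of them were called higher and 2, 0 and 2 lower on day 1, and 5, 2 and 6 higher and 4, 1 and 3 lower on day 5. Over all genes, in the same order, 23.7%, 17.5% and 35.3% were higher and 21.2%, 12% and 28.7% lower on day 1, and 18.3%, 9.7% and 28.5% higher and 14.7%, 8.5% and 24.7% lower on day 5, and the counts of each list below stand beside these shares. Jdp2, an AP-1 repressor that pairs with Jun proteins, was higher in all 6, by log2 fold changes of 0.41 to 1.44. Of 17 genes for SRF, its partners and the upstream kinases, all in the table, 4, 0 and 7 were higher and 2, 4 and 3 lower on day 1, and 1, 0 and 2 higher and 3, 4 and 3 lower on day 5. None of these was called in the same direction in all 6 comparisons. The median log2 fold change of the SRF and kinase list lay between -0.09 and 0.07 in the 6 comparisons, against medians over all genes of -0.02 to 0.04.

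Of 26 other immediate early genes 23 were in the table (Egr2, Egr4 and Nr4a3 were not). On day 1 11, 9 and 14 were called higher and 6, 5 and 7 lower in that order of lines, and on day 5 11, 7 and 10 higher and 3, 2 and 10 lower. In all 6 comparisons 6 genes were called higher. The largest means belonged to Ccn2, a matricellular target of YAP and TGF-beta (0.85 to 2.61 on the log2 scale), and the antiproliferative gene Btg2 (0.79 to 2.26). Next came the MAP kinase phosphatase Dusp1 (0.40 to 2.26) and the stress gene Gadd45b (0.53 to 1.37). The orphan nuclear receptor Nr4a1 was lower in all 6 (-1.57 to -0.40).

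Of 18 genes known as AP-1 targets 15 were in the table (Mmp3, Mmp9 and Il11 were not). On day 1 2, 2 and 3 were called higher and 10, 6 and 9 lower in that order of lines, and on day 5 4, 3 and 6 higher and 7, 3 and 4 lower. Their median log2 fold change was -0.38, -0.21 and -0.41 on day 1 and -0.22, -0.07 and 0.03 on day 5. The chromatin proteins Hmga2 (-3.01 to -1.53) and Hmga1 (-3.23 to -0.96) and the secreted phosphoprotein Spp1 (-2.90 to -1.03) were lower in all 6 comparisons, with the lowest values in NaJa-G on day 1. Plau, which encodes urokinase, was higher in all 6 by at least 0.50.

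The genes most alike each member were found by Pearson correlation of log2 CPM over the 12 group means, among at least 10255 genes with at least 2 log2 CPM on average. These are descriptions over few points that share libraries. Fosl1 was most like Tnnt2 (r = 0.976), Npm1 (0.972) and Kat2a (0.969), and Fosl2 most like Pip5k1a (0.963), the phosphatase gene Dusp1 (0.963) and Dusp19 (0.948). Fosb was most like Surf2 (0.959), Dusp12 (0.955) and Pus7l (0.946), and Fos most like Itga3 (0.936), Zfp11 (0.905) and Tmem206 (0.888). Among the Jun family, Jun was most like Mal (0.967), Epn3 (0.966) and Eps8l2 (0.958), Junb most like Chchd2 (0.917), Nr2f6 (0.887) and Foxa1 (0.887), and Jund most like Rnf34 (0.934), Acads (0.912) and Npdc1 (0.911). Atf3 was most like Ccn2 (0.960), Akirin1 (0.957) and Nuak2 (0.946), and Ier3 most like 4833427F10Rik (0.945), Cyp4f13 (0.896) and AI597479 (0.888). Egr1 had no close match, with Fbxo22 (0.787), Rnf8 (0.786) and Zfp386 (0.768) as the nearest. Among the members themselves Fosl1 and Fosb were most alike after Jun and Jund (0.832 and 0.836), and Fosl1 and Fosl2 most opposed (-0.732).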

How the data were processed

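RNA of 3 mouse cell lines was sequenced with and without encorafenib. The authors trimmed reads with Trimmomatic 0.39 and aligned them with STAR 2.5.2b to GRCm38 (mm10). They deposited 1 table of raw counts, which are not normalized. Counter, annotation and use of strand were not given in the sources used here. All 34 columns were used and grouped by title.

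The models were run with limma 3.58.1 and edgeR 4.0.16 (R 4.3.3): TMM factors (0.876 to 1.07), voom weights and 1 mean for each of the 12 groups, fitted over 14107 genes. Calls are two-sided at a Benjamini-Hochberg adjusted p below 0.01, as in the study's methods, which do not mention voom. SEs come from this fit. No source says that replicates were separate cultures, so p-values measure the spread between these libraries, which was 3.30 to 85.0 times the counting variance for pairs within a group. CPM use TMM factors. Symbols, exons and GC content come from GENCODE M21 (14064 of 14107 identifiers). The GC correction took off a lowess trend (span 0.3) from each library. Alternatives used edgeR, DESeq2 1.42.0, limma-trend (prior count 3), other scalings, a filter and a replicate block. Others changed the thresholds, fitted only the groups compared or left out each library in turn. The limma, edgeR and DESeq2 tests were checked on simulated counts for the encorafenib comparison of NaJa-G on day 1 alone. That check changed few genes and gave all others the same mean in every group, unlike these data. It did not cover response differences or the smaller groups.

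The members, lists and tests were chosen with earlier results of these data known. The text names the 10 members, from each list at most 4 genes in each direction called the same way in all 6 encorafenib comparisons (largest mean change), and the 3 genes most alike each member. Genes that overlap a member are named as well.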

Additional observations from a re-analysis of the deposited data

Results flagged for a closer look

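Tests of the difference between encorafenib responses marked 40 results, all log2 differences from the limma fit with adjusted p of at most 0.00563. They share DMSO and encorafenib libraries and are not independent.

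On day 1 NaJa-F minus NaJa-D gave -0.87 for Fosb, -0.42 for Fosl2, -1.07 for Egr1 and -0.59 for Ier3. NaJa-G minus NaJa-D gave -2.17 for Fosb, -2.28 for Fosl1, 0.62 for Fosl2, 0.84 for Jun, -1.79 for Egr1 and -0.53 for Ier3. NaJa-G minus NaJa-F gave -1.30 for Fosb, -1.93 for Fosl1, 1.04 for Fosl2, 1.07 for Jun and -0.72 for Egr1.

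On day 5 NaJa-F minus NaJa-D gave -0.68 for Fosb, -0.47 for Fosl2 and -1.08 for Egr1. NaJa-G minus NaJa-D gave -0.81 for Fosb, -1.28 for Fosl1, -1.35 for Junb, 0.80 for Atf3 and -2.10 for Egr1. NaJa-G minus NaJa-F gave -1.08 for Fosl1, 0.52 for Fosl2, -1.29 for Junb, 1.00 for Atf3 and -1.02 for Egr1. The Junb response difference between NaJa-G and NaJa-F lost its call without any 1 of 5 libraries (-1.27 to -0.71, the latter without NaJa-F encorafenib day 5 replicate 2). That between NaJa-G and NaJa-D lost it without NaJa-G DMSO day 5 replicate 3, and the Fosb one between NaJa-F and NaJa-D without any 1 of 7 libraries (-0.68 to -0.46).

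Day 5 minus day 1 gave 0.46 for Atf3 and 1.47 for Egr1 in NaJa-D, and 0.72 for Fosb, 0.57 for Fosl1 and 1.47 for Egr1 in NaJa-F. The Atf3 call in NaJa-D was lost without any 1 of 5 libraries (0.40 to 0.46). In NaJa-F the Fosb call was lost without any 1 of 3 libraries and the Fosl1 call without any 1 of 8, with 0.49 and 0.37 as the lowest values, both without encorafenib day 5 replicate 2. In NaJa-G day 5 minus day 1 gave 1.30 for Fos, 1.88 for Fosb, 1.42 for Fosl1, -0.47 for Fosl2, -1.07 for Jun, 1.24 for Atf3 and 1.16 for Egr1. No group held 4 or more libraries, so single libraries were not tested as outliers.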

How the results depend on the processing

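Of 137 gene results (113 called), the edgeR quasi-likelihood test changed 1 call, limma-trend 1, DESeq2 2 and RLE scaling 1. Scaling by library size only lost 4 calls, the fit with just the groups compared lost 13 and gained 1, and the GC correction lost 2 and gained 5; of 21 line results the day 1 groups only lost 3 and turned 1. At a limma adjusted p below 0.05, 6 uncalled encorafenib results crossed the threshold (Junb and Ier3 in NaJa-F on day 5, Fos and Ier3 in NaJa-G on day 1, Junb and Ier3 in NaJa-G on day 5), and 5 members were called between days in NaJa-D in place of 2. Junb in NaJa-D on day 5 (0.75, limma adjusted p = 0.0111) lost its call with the replicate number as a block (replicate block). So did Fos over time in NaJa-G (-0.71, limma adjusted p = 0.0122), and no other gene result did. Same-numbered libraries deviated together at correlations of -0.44 to 0.49. With 2 or 3 libraries in a group, these values cannot show whether equal numbers pair the libraries. Direction turned for uncalled Junb values under scaling by library size only (-0.0015 in NaJa-F and -0.0049 in NaJa-G, both day 1), for Fosb in NaJa-D on day 5 after the GC correction (-0.014) and for Fosl2 between NaJa-G and NaJa-D with the day 1 groups only (-0.013). Leaving out 1 library turned uncalled encorafenib values, whose ranges were -0.10 to 0.18 for Fos, -0.10 to 0.50 for Jun and -0.020 to 1.48 for Jund in NaJa-F on day 5, -0.039 to 0.10 for Fosb in NaJa-D on day 5, -0.031 to 0.055 (NaJa-F) and -0.058 to 0.27 (NaJa-G) for Junb on day 1, and -0.17 to 0.42 for Jund in NaJa-G on day 5. Beside the limma threshold, a log2 change of at least 1 left 0 and 1 members called with encorafenib in NaJa-D (day 1, day 5). It left 2 and 0 in NaJa-F and 2 in NaJa-G on day 5. In NaJa-G on day 1 Fosb, Fosl1, Fosl2, Jun, Jund and Egr1 kept their calls. For NaJa-G minus NaJa-F responses Fosb, Fosl1, Fosl2 and Jun kept theirs on day 1, and Fosl1, Junb, Atf3 and Egr1 on day 5. Between days in NaJa-G all called members but Fosl2 did. The same rule left 1, 2 and 0 between lines (F and D, G and D, G and F), 2, 0 and 3 over time (D, F, G), and in response differences 1 and 3 on day 1 and 1 and 3 on day 5 (F and D, G and D), and 1 each between days in NaJa-D and NaJa-F; it is a stricter rule by construction. When the fit held just the groups compared, 8 members were called over time in NaJa-F and 1 between days in NaJa-D, and after the GC correction 8 with encorafenib in NaJa-F on day 5; the cause was not tested. Leaving out 1 library gave 1 to 3 members for the response difference between days in NaJa-D and 1 to 3 in NaJa-F. Over all genes, the response difference between NaJa-F and NaJa-D on day 1 held 1240 calls, 2143 by DESeq2, 415 with only the groups compared and 645 to 3937 without 1 library, and that between days in NaJa-D 1029, 261 with only these groups and 581 to 3104; both highest counts came without NaJa-D encorafenib day 1 replicate 3. At an adjusted p below 0.05 they were 3223 and 2401, against 2207 for NaJa-F and NaJa-D on day 5, 4642 for NaJa-G and NaJa-D on day 5 (3089 at 0.01), 1414 between days in NaJa-F (830) and 4053 over time in NaJa-F. Only the groups compared gave 3546 calls in place of 6335 in NaJa-D on day 1 and 1182 in place of 4804 over time in NaJa-G, and a log2 change of at least 1 left 181 to 2883 in all comparisons. Over time in NaJa-F leaving out 1 library gave as few as 1462 of 2361 calls, and for NaJa-F against NaJa-D responses on day 5 771 of 1248. Fos had the lowest counts of the members (45 or more per library), while Jund and Junb had the largest spread between replicates.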
